A study of Mus musculus with 20 samples.

Results

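The genes described here are 41 cytokine and growth factor receptor genes, taken from a table of 54532 mouse genes as the rows whose gene name is on a list given for this work. The list holds receptor chains for interleukins, colony-stimulating factors, interferons, erythropoietin, growth hormone and relatives of interleukin 6, and each of the 41 names had 1 row. Counts came from RNA sequencing of whole spleen at an age of 4 weeks, in mice bred on a gluten-free diet and in control mice. The 20 libraries fall into 4 groups by diet and by the form of the ID. The plain number IDs cover 4 gluten-free (7 to 10) and 8 control libraries (1 to 8), and the S IDs cover 5 gluten-free (S1, S3, S5, S6, S8) and 3 control libraries (S1, S2, S6). What the letter S stands for, the strain, the sex, the feeds and whether each ID is a separate mouse are not given in the sources used here. The p-values therefore measure the spread between libraries, which may be technical, and diet was compared inside each ID form as well as over all libraries.

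Cytokine receptors sit in the cell membrane and are mostly assembled from a chain that recognises 1 ligand and a chain shared by several receptors. Class I and class II chains have no enzyme of their own and signal through JAK kinases and STAT transcription factors, whereas Csf1r and Flt3 are themselves tyrosine kinases and the interleukin 1 and interleukin 17 receptors signal through adaptor proteins. In the spleen such receptors set the survival and maturation of lymphocytes, the output of granulocytes and macrophages and, in young mice, the formation of red cells in the red pulp.

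Library totals ran from 16134584 to 22501138 counts in gluten-free plain, 13626021 to 19719591 in control plain, 18008255 to 24268237 in gluten-free S and 15235671 to 17824287 in control S libraries. Levels are given as CPM, counts scaled to a common total after scaling the library totals by TMM (trimmed mean of M values). Of the 41 receptor genes 40 passed the filter on low counts, among 18362 genes in all, and the exception was Il23r, a chain of the interleukin 23 receptor, with 68 counts over the 20 libraries. Markers of the tissue were present, and each of the 78 marker genes in 13 cell type lists had counts. The lists reached sums of 978.2 to 2729 CPM for 6 B cell markers and of 374.5 to 764.7 CPM for 6 red pulp macrophage and monocyte markers. Within the plain IDs the 10 red cell precursor markers together reached 3794 to 6547 CPM in gluten-free and 8700 to 15759 CPM in control libraries, with no overlap. The 9 neutrophil markers together reached 2906 to 7601 CPM in gluten-free and 710.9 to 2248 CPM in control libraries, again with no overlap. The 5 pancreatic acinar markers summed to 5423 CPM in gluten-free S1 and 468.5 CPM in control 4, and to no more than 20.26 CPM elsewhere. The 5 basophil, mast cell and eosinophil markers summed to 65.88 to 124.3 CPM in gluten-free plain libraries, to 3.615 CPM in control 2 and 6.218 CPM in control 5, and to 33.79 to 61.17 CPM in the other 6 control plain libraries. The count of receptor genes called in the plain IDs was 25 with all libraries, 22 without control 2, 23 without control 4 and 25 without control 5.

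Per kilobase of gene length, Epor was the most abundant of the 41 genes, with a mean of 103 CPM per kilobase over the 20 libraries. Epor encodes the erythropoietin receptor of red cell precursors. It was followed by Ifngr1, the ligand-binding chain of the interferon gamma receptor, at 34.6 CPM per kilobase, by Il2rg, the common gamma chain, at 33.0 and by Csf1r, the receptor of macrophage colony-stimulating factor, at 25.6 CPM per kilobase. At the low end stood Il1rap, the accessory chain of the interleukin 1 receptor family, at 0.633 CPM per kilobase, Il12rb2, the signalling chain of the interleukin 12 receptor, at 0.345 and Il23r at 0.0701 CPM per kilobase. Within a pair that forms 1 receptor the levels were often unequal: Ifngr1 stood above Ifngr2 (11.8 CPM per kilobase) and Il10ra (23.5) above Il10rb (9.14), while Il18r1 (3.05) and Il18rap (2.40) lay close together. Some of these levels carry a limit of counting, since neither the strand setting nor the handling of reads in overlapping genes is given. On the opposite strand, 38% of the 50-base words of Il12rb2 also occur in Serbp1 and 14.3% of those of Csf1r in Hmgxb3. On the same strand, Il2rg overlaps Gm20489 and Il10rb overlaps Gm21970, and 27.5% and 13.9% of the words of these 2 receptor genes are shared.

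**Figure D1:**
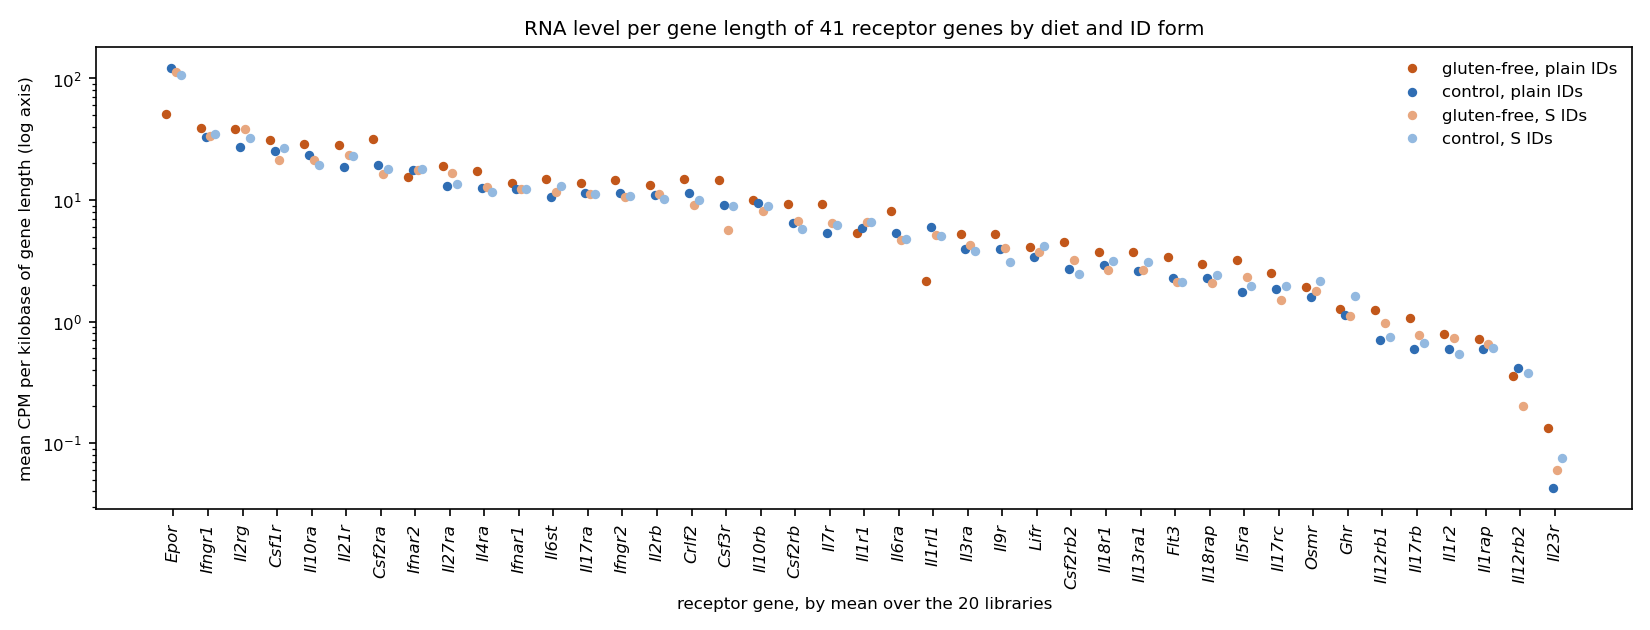
Mean RNA level of the 41 receptor genes in the 4 groups, in CPM per kilobase of gene length on a log axis, with genes ordered by their mean over the 20 libraries; each point is the mean of 1 group and the points carry no error bars. Epor heads the order at 51.4 CPM per kilobase in gluten-free plain and 122 in control plain libraries, and Epor and Il1rl1 are the genes whose gluten-free plain point lies far below the other 3.

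Within the plain IDs most receptor genes were higher on the gluten-free diet, and Epor and Il1rl1 were lower. At an adjusted p under 0.05 in edgeR's quasi-likelihood test with Benjamini-Hochberg adjustment over all 18362 genes, 23 of the 40 receptor genes tested were called higher and 2 lower in gluten-free plain libraries. That is 57.5% higher and 5% lower, whereas 17.5% of all genes tested were called higher and 22.1% lower. Among protein-coding genes alone the shares were 20.3% higher and 24.6% lower. The receptor genes were chosen with earlier results of these data known, so this contrast of shares is descriptive. The median log2 fold change was 0.39 over the 40 receptor genes and 0.03 over all genes. Scaling by library totals alone moved the median of all genes from 0.03 to 0.31 and called 32 receptor genes higher and 2 lower.

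Within the S IDs 0 of the 40 receptor genes were called, and 0% of all genes were called higher and 0% lower. At an unadjusted p under 0.05 the count was 0 receptor genes and 986 of all genes in edgeR, and DESeq2 and limma-voom also called 0 receptor genes. The median log2 fold change was 0.00 over the receptor genes and 0.02 over all genes. With 5 gluten-free and 3 control libraries the standard errors were wide, so a p that misses the threshold here does not show that the levels were alike. Over all 20 libraries with a term for the ID form, edgeR called 0 receptor genes and again 0% of all genes higher and 0% lower, while 17 receptor genes and 4559 of all genes had an unadjusted p under 0.05. DESeq2 called 5 receptor genes in that comparison, Csf2rb2, Il12rb1 and Csf2rb higher and Epor and Il1rl1 lower. The edgeR count over all libraries reached 19 (17 higher, 2 lower) without control S6 and 11 (9 higher, 2 lower) without gluten-free S8. Those fits also called 3695 and 2923 of all genes, against 0 with all libraries, so the move was not particular to the receptor genes.

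**Figure D2:**
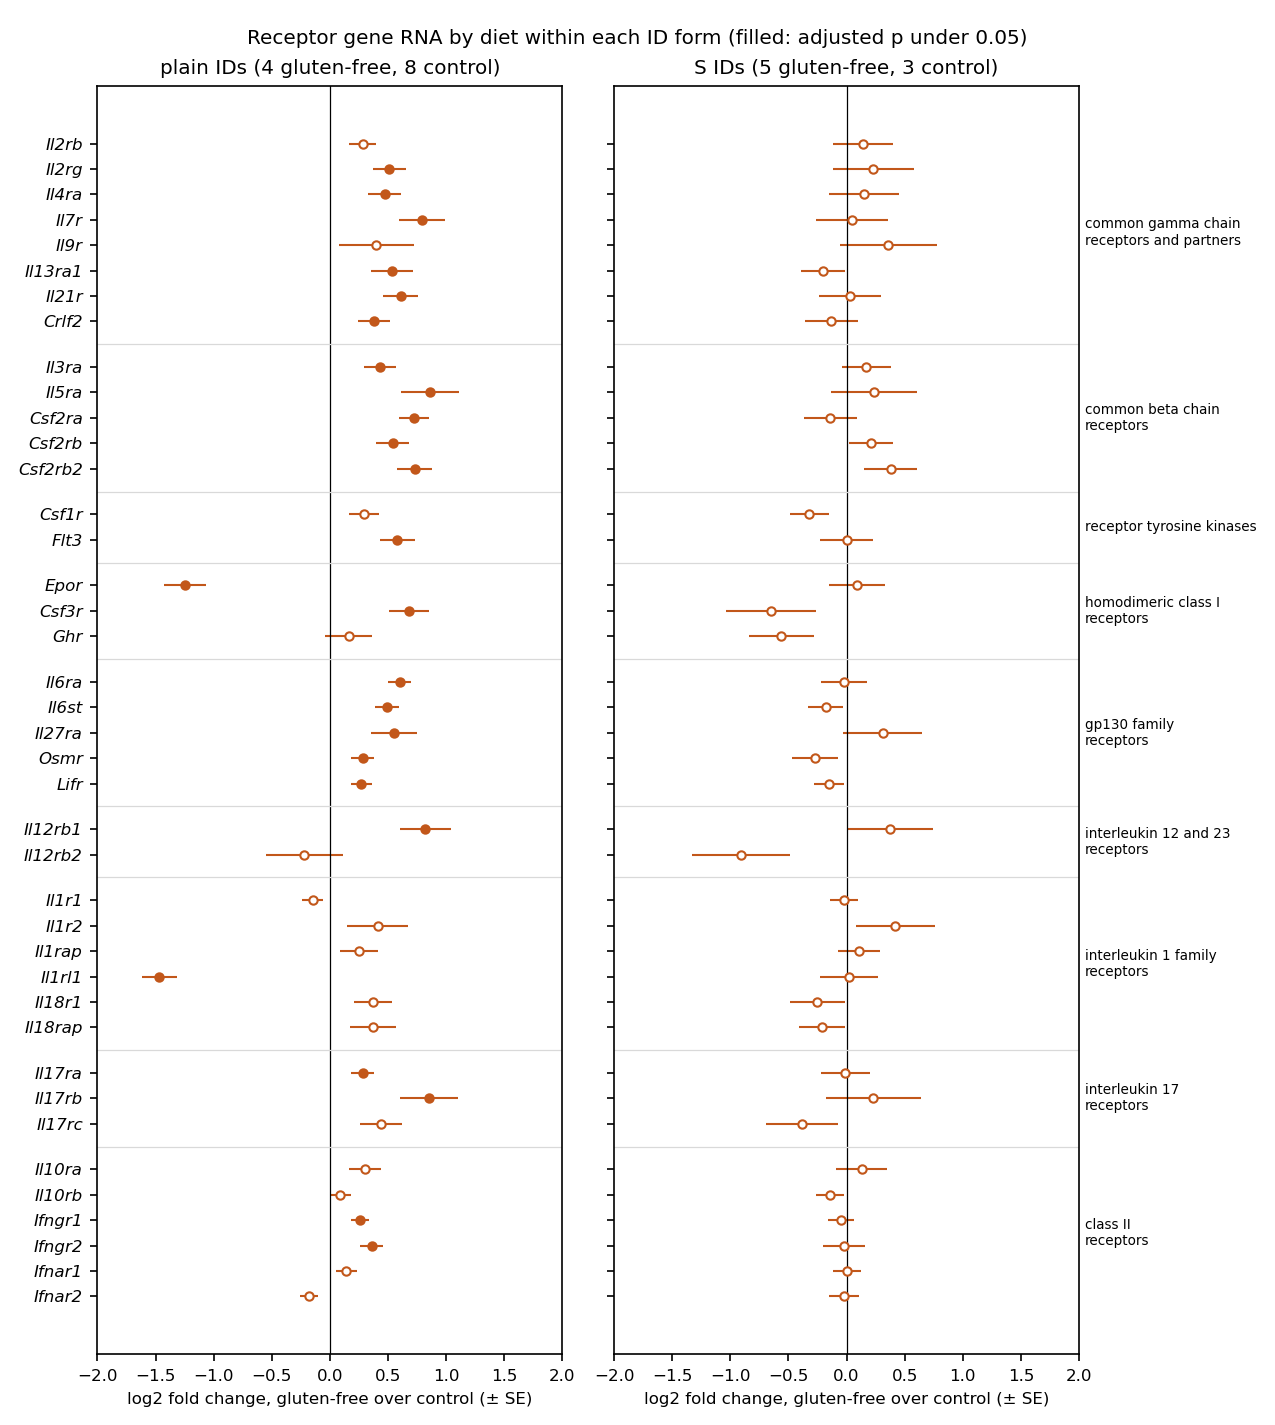
Log2 fold change, gluten-free over control, of the 40 tested receptor genes in the plain IDs (left) and the S IDs (right), ordered by receptor family; bars are ± 1 SE and filled points have an edgeR adjusted p under 0.05. On the left 23 filled points lie above 0 and those of Epor (-1.25) and Il1rl1 (-1.47) lie below it, and no point on the right is filled.

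Whole spleen holds many cell types, and from these libraries fewer cells of a type and less RNA per cell cannot be told apart. The red cell precursor markers moved with the plain ID comparison, 10 of 10 called lower with a median log2 fold change of -1.38. Called higher were 9 of 9 neutrophil markers (median 1.64), 7 of 7 T cell markers (0.70), 5 of 5 tested megakaryocyte and platelet markers (1.00) and 4 of 5 basophil, mast cell and eosinophil markers (1.39). Median log2 fold changes were 0.43 for 6 B cell markers, of which 1 was called higher, 0.07 for 6 red pulp macrophage and monocyte markers, -0.06 for 5 NK cell markers and 0.20 for 4 adipocyte markers. Of the remaining lists, 3 of 5 fibroblast and 2 of 4 mesothelium markers were called higher, 3 of 6 dendritic cell markers higher and 1 lower, and 2 of 5 pancreatic acinar markers lower. With library totals alone 6 of 6 B cell markers were called higher (median 0.69), as were 5 of 6 dendritic cell, 5 of 5 fibroblast, 4 of 4 mesothelium, 2 of 6 red pulp macrophage and monocyte and 1 of 5 NK cell markers. With the mean log2 level of the red cell precursor markers as a covariate, none of the 25 receptor calls within the plain IDs was kept, and 4 receptor genes were called, all lower: Il9r (-2.11), Il5ra (-1.25), Il27ra (-1.09) and Il4ra (-0.71). The covariate does not overlap between the diets within the plain IDs, so diet and red cell precursor level cannot be told apart there.

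The receptors that use the common gamma chain carry signals for lymphocyte growth and survival. Of the 8 genes of this family and its partners 6 were called higher and 0 lower within the plain IDs. Their median log2 fold change was 0.49. Among all genes tested 17.5% were called higher and 22.1% lower. Il7r, the interleukin 7 receptor chain needed for T and early B cells, stood at 50.01, 35.9, 45.7 and 40.5 CPM in gluten-free plain libraries, against 16.0 (lowest), 22.3 (median) and 41.5 CPM (highest) in control plain libraries. Of the controls only control 8 reached into the gluten-free range. The rise of Il7r passed the test (log2 fold change 0.79, SE 0.20, edgeR adjusted p = 0.00599). In the S IDs Il7r had 27.1, 33.0, 26.7, 45.1 and 19.2 CPM in gluten-free S and 19.4, 23.4 and 44.8 CPM in control S libraries. The groups overlapped, and gluten-free S6 and control S6 were the highest of each (log2 fold change 0.05, SE 0.31, edgeR adjusted p = 0.994). Relative to the mean log2 level of the 7 T cell markers, Il7r stood at -0.56 ± 0.14 in gluten-free (SD, n = 4) and -0.67 ± 0.20 in control plain libraries (SD, n = 8). The difference of 0.10 missed the threshold (exact permutation test, two-sided, p = 0.38, adjusted p = 0.582 over 8 such tests). These 8 tests of a receptor gene relative to a marker list, over 4 genes and both ID forms, were picked once the values were known.

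Il21r, the receptor chain for the T helper cytokine interleukin 21, had 119, 84.0, 87.0 and 89.9 CPM in gluten-free plain libraries, against 48.8 (lowest), 54.3 (median) and 90.9 CPM (highest) in control plain libraries. Again 7 of the 8 controls lay below every gluten-free library and control 8 lay among them, and the change passed the test (log2 fold change 0.61, SE 0.15, edgeR adjusted p = 0.00543). Il21r stood at 69.8, 84.8, 77.2, 111 and 48.1 CPM in gluten-free S and 65.3, 56.9 and 108 CPM in control S libraries. The 2 ranges overlapped (log2 fold change 0.03, SE 0.27, edgeR adjusted p = 0.994). Il2rg averaged 92.4 ± 10.6 CPM in gluten-free (SD, n = 4) and 64.7 ± 13.8 CPM in control plain libraries (SD, n = 8). The groups did not overlap (log2 fold change 0.51, SE 0.14, edgeR adjusted p = 0.0076). Il4ra, shared by the interleukin 4 and 13 receptors, averaged 104 ± 14.5 CPM in gluten-free (SD, n = 4) and 75.1 ± 16.8 CPM in control plain libraries (SD, n = 8) (log2 fold change 0.47, SE 0.14, edgeR adjusted p = 0.0144), although 8.44% of its 50-base words also occur in the antisense gene Gm44876. Il13ra1, its partner for interleukin 13 (log2 fold change 0.53, SE 0.18, edgeR adjusted p = 0.0254), and Crlf2, the chain for thymic stromal lymphopoietin (log2 fold change 0.38, SE 0.14, edgeR adjusted p = 0.0442), were also called. The call of Crlf2 was lost in 8 of the 12 fits that leave out 1 library, all but those without gluten-free 7, control 4, control 6 or control 8, and that of Il13ra1 without gluten-free 8 or gluten-free 10. Il2rb, the beta chain for interleukins 2 and 15, and Il9r, the interleukin 9 receptor chain, were not called (log2 fold change 0.28, SE 0.12, edgeR adjusted p = 0.0784; log2 fold change 0.40, SE 0.32, edgeR adjusted p = 0.334). Within the S IDs the 8 genes ran from -0.20 for Il13ra1 to 0.36 for Il9r.

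The common beta chain receptors serve interleukin 3, interleukin 5 and granulocyte-macrophage colony-stimulating factor (GM-CSF). All 5 tested genes were called higher within the plain IDs, with a median log2 fold change of 0.72. Among all genes tested 17.5% were called higher and 22.1% lower. Csf2ra, the ligand-binding chain for GM-CSF on myeloid cells, had 48.1, 61.6, 51.0 and 73.9 CPM in gluten-free plain libraries, against 28.5 (lowest), 34.6 (median) and 45.7 CPM (highest) in control plain libraries. The 2 groups did not overlap, and the change passed the test (log2 fold change 0.72, SE 0.13, edgeR adjusted p = 0.000441). Csf2ra stood at 37.9, 28.1, 24.9, 41.4 and 19.5 CPM in gluten-free S and 36.5, 27.2 and 36.5 CPM in control S libraries. The 3 controls lay inside the gluten-free range (log2 fold change -0.14, SE 0.23, edgeR adjusted p = 0.977). Csf2rb2, the mouse beta chain that serves interleukin 3 alone, had 21.2, 22.5, 19.7 and 21.8 CPM in gluten-free plain libraries, against 9.59 (lowest), 11.7 (median) and 16.8 CPM (highest) in control plain libraries. Every gluten-free plain library exceeded every control plain library (log2 fold change 0.73, SE 0.15, edgeR adjusted p = 0.00104). Csf2rb2 stood at 16.1, 15.1, 16.1, 19.0 and 9.68 CPM in gluten-free S and 9.54, 10.4 and 15.0 CPM in control S libraries. Their ranges overlapped (log2 fold change 0.38, SE 0.23, edgeR adjusted p = 0.899).

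Il5ra, the interleukin 5 receptor chain of eosinophils and B-1 cells, had 15.9, 8.96, 9.53 and 11.2 CPM in gluten-free plain libraries, against 3.95 (lowest), 5.47 (median) and 12.7 CPM (highest) in control plain libraries. Its gluten-free libraries exceeded 7 of the 8 controls, control 8 being the exception (log2 fold change 0.86, SE 0.25, edgeR adjusted p = 0.0121); without gluten-free 7 the log2 fold change was 0.68 and the call was lost. Levels of Il5ra in the S IDs were 4.74, 8.51, 7.23, 15.8 and 5.20 CPM in gluten-free S and 6.63, 5.59 and 8.89 CPM in control S libraries. Gluten-free S6 stood above every other S library, and the groups overlapped (log2 fold change 0.24, SE 0.37, edgeR adjusted p = 0.975). Csf2rb, the shared beta chain itself, averaged 68.0 ± 5.56 CPM in gluten-free (SD, n = 4) and 46.9 ± 10.6 CPM in control plain libraries (SD, n = 8) (log2 fold change 0.54, SE 0.14, edgeR adjusted p = 0.00672), and Il3ra, the interleukin 3 chain, 15.6 ± 1.45 CPM in gluten-free (SD, n = 4) and 11.6 ± 2.36 CPM in control plain libraries (SD, n = 8) (log2 fold change 0.43, SE 0.14, edgeR adjusted p = 0.0273). The Il3ra call was lost without gluten-free 8 or gluten-free 10. Csf2rb and Csf2rb2 are close copies, 12.3% of the 50-base words of Csf2rb and 18.4% of those of Csf2rb2 being shared between them, so their counts are less certain than those of the other 3 genes.

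Of the receptor tyrosine kinases, Flt3, which marks early progenitors and dendritic cell precursors, had 18.7, 19.9, 22.1 and 23.5 CPM in gluten-free plain libraries, against 10.8 (lowest), 13.2 (median) and 19.0 CPM (highest) in control plain libraries. Only control 8 lay above the lowest gluten-free library, and the change passed the test (log2 fold change 0.58, SE 0.15, edgeR adjusted p = 0.00481). Flt3 stood at 12.3, 15.3, 10.8, 17.8 and 9.07 CPM in gluten-free S and 11.5, 11.6 and 16.2 CPM in control S libraries. The diets overlapped (log2 fold change 0.00, SE 0.23, edgeR adjusted p = 1). Csf1r, which macrophages need for survival, had 135, 158, 154 and 157 CPM in gluten-free plain libraries, against 84.2 (lowest), 132 (median) and 149 CPM (highest) in control plain libraries. The highest control lay inside the gluten-free range and the change missed the threshold (log2 fold change 0.29, SE 0.13, edgeR adjusted p = 0.0729). Csf1r stood at 134, 109, 86.7, 90.8 and 102 CPM in gluten-free S and 126, 153 and 113 CPM in control S libraries. The 2 groups overlapped, although the highest was a control and the lowest a gluten-free library (log2 fold change -0.32, SE 0.17, edgeR adjusted p = 0.89).

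Among receptors that work as homodimers, Epor was called lower, Csf3r was called higher and Ghr, the growth hormone receptor, was not called (log2 fold change 0.16, SE 0.20, edgeR adjusted p = 0.542). Epor (GRCm38 chr9:21958897-21963506, minus strand) had 69.5, 116, 118 and 106 CPM in gluten-free plain libraries, against 143 (lowest), 253 (median) and 291 CPM (highest) in control plain libraries. All 4 gluten-free plain libraries lay below all 8 controls, gluten-free 7 the lowest and control 8 the lowest of the controls. The fall passed the test (log2 fold change -1.25, SE 0.18, edgeR adjusted p = 6.47e-05) and kept its call in all 12 fits that leave out 1 library. In the S IDs Epor had 195, 206, 271, 149 and 303 CPM in gluten-free S and 253, 229 and 151 CPM in control S libraries. Here the controls lay inside the gluten-free range (log2 fold change 0.09, SE 0.24, edgeR adjusted p = 0.984). Relative to the mean log2 level of the 10 red cell precursor markers, Epor stood at -1.51 ± 0.09 in gluten-free (SD, n = 4) and -1.64 ± 0.13 in control plain libraries (SD, n = 8). That difference of 0.13 missed the threshold (exact permutation test, two-sided, p = 0.105, adjusted p = 0.42 over 8 such tests).

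Csf3r, the receptor for granulocyte colony-stimulating factor on the neutrophil lineage, had 35.5, 60.9, 45.8 and 68.7 CPM in gluten-free plain libraries, against 22.8 (lowest), 34.5 (median) and 40.6 CPM (highest) in control plain libraries. Of the 4 gluten-free libraries 3 exceeded every control, and gluten-free 7 lay within the control range (log2 fold change 0.68, SE 0.17, edgeR adjusted p = 0.00501). Csf3r stood at 34.2, 22.5, 6.67, 23.01 and 16.1 CPM in gluten-free S and 29.9, 41.5 and 25.3 CPM in control S libraries. Gluten-free S5 was the lowest of all 20 libraries, and the groups overlapped (log2 fold change -0.65, SE 0.39, edgeR adjusted p = 0.899). Of the 50-base words of Csf3r 10.7% also occur in other genes. The rise of Csf3r was smaller than that of the 9 neutrophil markers: relative to their mean, Csf3r stood at -2.80 ± 0.22 in gluten-free (SD, n = 4) and -1.78 ± 0.51 in control plain libraries (SD, n = 8). This difference of -1.02 on the log2 scale passed the threshold (exact permutation test, two-sided, p = 0.00404, adjusted p = 0.0323 over 8 such tests). The gene and the marker list were picked once the values were known, so this p is not independent support. With 4 and 8 libraries 0.00404 is also the smallest p that this two-sided test can return. In the S IDs the same difference was -0.29 (p = 0.214 by the same exact test, adjusted p = 0.429).

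Promoters of Epor and Il1rl1, the 2 genes called lower, and of Csf3r and Csf2ra, genes of myeloid cells called higher, are shown from RefSeq on GRCm38.p6, each from 250 bases before to 50 bases after a gene start and written on the strand of the gene. Capitals mark AGATAA, a core letter pattern of GATA factors, and GAGGAA, a core letter pattern of ETS factors such as PU.1, read on both strands (TTATCT and TTCCTC on the other).
Epor, chr9:21963527-21963826, minus strand: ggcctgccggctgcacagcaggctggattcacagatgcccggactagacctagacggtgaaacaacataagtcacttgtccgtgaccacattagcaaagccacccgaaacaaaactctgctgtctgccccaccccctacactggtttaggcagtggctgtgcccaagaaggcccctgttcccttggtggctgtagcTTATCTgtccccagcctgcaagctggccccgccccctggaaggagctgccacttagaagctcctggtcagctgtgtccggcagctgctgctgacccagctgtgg
Il1rl1, chr1:40429320-40429619, plus strand: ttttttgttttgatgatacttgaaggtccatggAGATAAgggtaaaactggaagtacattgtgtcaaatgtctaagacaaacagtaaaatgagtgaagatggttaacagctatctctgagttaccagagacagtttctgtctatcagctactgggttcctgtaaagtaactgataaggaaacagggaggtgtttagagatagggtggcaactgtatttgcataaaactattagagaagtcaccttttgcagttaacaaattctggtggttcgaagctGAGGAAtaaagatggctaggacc
Csf3r, chr4:126024409-126024708, plus strand: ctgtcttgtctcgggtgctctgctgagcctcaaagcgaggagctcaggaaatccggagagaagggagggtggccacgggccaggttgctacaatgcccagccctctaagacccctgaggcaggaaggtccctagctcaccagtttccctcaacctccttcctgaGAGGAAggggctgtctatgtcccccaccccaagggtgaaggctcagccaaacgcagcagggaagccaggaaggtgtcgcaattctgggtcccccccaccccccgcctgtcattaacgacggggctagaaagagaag
Csf2ra, chr19:61228369-61228668, minus strand: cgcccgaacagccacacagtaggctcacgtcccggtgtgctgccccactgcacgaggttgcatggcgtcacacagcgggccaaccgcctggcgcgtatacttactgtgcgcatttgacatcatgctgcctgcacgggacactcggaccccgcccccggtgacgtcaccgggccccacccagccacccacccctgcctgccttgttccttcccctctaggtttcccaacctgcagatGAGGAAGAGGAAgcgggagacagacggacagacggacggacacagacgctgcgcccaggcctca
AGATAA occurred in 5 of the 33 receptor promoters in the RefSeq table (Epor, Il1rl1, Il5ra, Il6ra and Il9r) and in 11.4% of 27025 promoter windows in all. GAGGAA occurred in 12 of the 33 (Crlf2, Csf2ra, Csf2rb2, Csf3r, Ghr, Ifnar1, Il18rap, Il1rl1, Il23r, Il5ra, Il6ra and Osmr), against 28.3% of all windows. TTCNNNGAA, the pattern read by STAT factors, occurred in 6 of the 33 (Csf2rb2, Ifnar1, Ifnar2, Il12rb2, Il1r2 and Il7r), against 8.47% of all windows. Epor and Il1rl1 both held AGATAA, but so did Il5ra and Il6ra, which were called higher. The capitals in Csf2ra are 2 adjacent matches of GAGGAA. A match describes these letters and does not show binding.

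The gp130 family shares the signalling chain Il6st, also called gp130. All 5 tested genes of the family were called higher within the plain IDs, with a median log2 fold change of 0.49. Among all genes tested 17.5% were called higher and 22.1% lower. Il6ra, the chain that binds interleukin 6, had 74.6, 66.3, 67.0 and 71.1 CPM in gluten-free plain libraries, against 40.8 (lowest), 44.1 (median) and 61.0 CPM (highest) in control plain libraries. No control reached the gluten-free range, although control 8 came nearest (log2 fold change 0.60, SE 0.10, edgeR adjusted p = 0.000164). Il6ra levels in the S IDs were 41.7, 43.6, 38.8, 48.9 and 28.5 CPM in gluten-free S and 35.6, 33.6 and 53.5 CPM in control S libraries. The ranges of the 2 diets overlapped (log2 fold change -0.02, SE 0.20, edgeR adjusted p = 0.994). Il6st had 176, 163, 170.0 and 153 CPM in gluten-free plain libraries, against 99.6 (lowest), 115 (median) and 152 CPM (highest) in control plain libraries. The 2 groups did not overlap, control 8 again being the highest control (log2 fold change 0.49, SE 0.10, edgeR adjusted p = 0.00107). Il6st stood at 134, 138, 112, 154 and 104 CPM in gluten-free S and 144, 144 and 148 CPM in control S libraries. The 3 controls lay close together inside the gluten-free range (log2 fold change -0.18, SE 0.15, edgeR adjusted p = 0.938).

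Il27ra, the interleukin 27 receptor chain, had 81.3, 57.2, 60.2 and 68.7 CPM in gluten-free plain libraries, against 31.0 (lowest), 39.3 (median) and 80.4 CPM (highest) in control plain libraries. Control 2 and control 8 lay above the lowest gluten-free library (log2 fold change 0.55, SE 0.20, edgeR adjusted p = 0.0408), and the call was lost in 8 of the 12 fits that leave out 1 library, all but those without gluten-free 8, gluten-free 9, control 2 or control 8. Il27ra in the S IDs had 46.4, 57.5, 63.5, 87.2 and 37.2 CPM in gluten-free S and 34.8, 28.7 and 77.9 CPM in control S libraries. These ranges were wide and overlapped (log2 fold change 0.31, SE 0.34, edgeR adjusted p = 0.966). Lifr, the leukaemia inhibitory factor receptor, had 46.2, 44.5, 44.3 and 41.6 CPM in gluten-free plain libraries, against 30.7 (lowest), 36.1 (median) and 42.5 CPM (highest) in control plain libraries. The highest control lay just above the lowest gluten-free library (log2 fold change 0.27, SE 0.09, edgeR adjusted p = 0.0238). Lifr stood at 43.6, 43.4, 36.0, 45.5 and 34.6 CPM in gluten-free S and 48.6, 43.2 and 43.5 CPM in control S libraries. The groups overlapped here too (log2 fold change -0.15, SE 0.13, edgeR adjusted p = 0.941). Osmr, the oncostatin M receptor chain found on stromal cells, averaged 23.4 ± 3.18 CPM in gluten-free (SD, n = 4) and 19.2 ± 1.89 CPM in control plain libraries (SD, n = 8) (log2 fold change 0.28, SE 0.10, edgeR adjusted p = 0.0413), and its call was lost in 7 of the 12 fits, all but those without gluten-free 7, gluten-free 10, control 1, control 5 or control 8.

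Of the interleukin 12 and 23 receptors, Il12rb1, the chain that both receptors share, had 6.08, 5.79, 4.52 and 4.05 CPM in gluten-free plain libraries, against 1.93 (lowest), 2.66 (median) and 5.03 CPM (highest) in control plain libraries. Control 8 lay among the gluten-free libraries and the other 7 controls below them (log2 fold change 0.82, SE 0.22, edgeR adjusted p = 0.00723). Among S libraries Il12rb1 had 2.82, 4.04, 4.02, 6.13 and 2.88 CPM in gluten-free S and 2.23, 2.04 and 4.97 CPM in control S libraries. Gluten-free S6 and control S6 were the highest of their groups, which overlapped (log2 fold change 0.37, SE 0.37, edgeR adjusted p = 0.958). Il12rb2 was called neither in the plain IDs (log2 fold change -0.22, SE 0.33, edgeR adjusted p = 0.626) nor in the S IDs (log2 fold change -0.91, SE 0.42, edgeR adjusted p = 0.89). Il23r averaged 0.334 ± 0.399 CPM in gluten-free plain (SD, n = 4), 0.106 ± 0.112 in control plain (SD, n = 8), 0.149 ± 0.0958 in gluten-free S (SD, n = 5) and 0.187 ± 0.164 CPM in control S libraries (SD, n = 3), too few counts for a test.

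The interleukin 1 family receptors gave 0 calls higher and 1 lower among 6 genes within the plain IDs. The shares of all genes tested were 17.5% higher and 22.1% lower. With library totals alone 3 of the family were called higher and 1 lower. The gene called lower was Il1rl1 (GRCm38 chr1:40429570-40465415, plus strand), which encodes ST2, the receptor chain for interleukin 33, and it had 13.2, 14.8, 16.1 and 15.1 CPM in gluten-free plain libraries, against 24.9 (lowest), 43.2 (median) and 47.5 CPM (highest) in control plain libraries. The gluten-free values lay close together and below every control, and control 8 was the lowest control by a wide margin. Of the 40 receptor genes Il1rl1 had the log2 fold change farthest from 0 in the plain IDs (log2 fold change -1.47, SE 0.15, edgeR adjusted p = 9.33e-06), and the call stood in all 12 fits that leave out 1 library. Among S libraries Il1rl1 had 34.4, 28.9, 41.7, 22.7 and 50.3 CPM in gluten-free S and 34.4, 43.2 and 27.3 CPM in control S libraries. The controls lay inside the gluten-free range (log2 fold change 0.02, SE 0.25, edgeR adjusted p = 0.994). Relative to the mean of the red cell precursor markers, Il1rl1 stood at -4.27 ± 0.21 in gluten-free (SD, n = 4) and -4.20 ± 0.15 in control plain libraries (SD, n = 8). This difference of -0.07 missed the threshold (exact permutation test, two-sided, p = 0.509, adjusted p = 0.582). Il1rl1 was set against this marker list alone, picked once the values were known. A missed threshold does not show that gene and markers changed alike.

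The other 5 genes of the interleukin 1 family were not called with TMM scaling. Il1r1, the signalling receptor for interleukin 1, differed little across the plain IDs (log2 fold change -0.15, SE 0.09, edgeR adjusted p = 0.189), and Il1r2, its decoy, was near the filter at 1.504 ± 0.487 CPM in gluten-free (SD, n = 4) and 1.12 ± 0.226 CPM in control plain libraries (SD, n = 8) (log2 fold change 0.41, SE 0.26, edgeR adjusted p = 0.21). Il1rap had few counts per length (log2 fold change 0.25, SE 0.16, edgeR adjusted p = 0.216). The interleukin 18 receptor pair, Il18r1 and Il18rap, had log2 fold changes of 0.37 and 0.37 (edgeR adjusted p = 0.0754 and 0.139). Il1rl1, Il18r1, Il18rap, Il1r1 and Il1r2 lie in 1 cluster on chromosome 1, yet their log2 fold changes ran from -1.47 to 0.41.

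Of the interleukin 17 receptors, Il17rb, the chain for interleukin 25, had 4.26, 3.04, 4.33 and 4.31 CPM in gluten-free plain libraries, against 1.22 (lowest), 2.12 (median) and 4.24 CPM (highest) in control plain libraries. Of the controls only control 8 reached the gluten-free range (log2 fold change 0.85, SE 0.25, edgeR adjusted p = 0.0149). Il17rb stood at 2.31, 2.82, 2.04, 5.57 and 1.72 CPM in gluten-free S and 1.80, 2.16 and 3.495 CPM in control S libraries. Gluten-free S6 stood far above the rest (log2 fold change 0.23, SE 0.41, edgeR adjusted p = 0.978). Il17ra, the chain shared by the family, had 123, 119, 112 and 127 CPM in gluten-free plain libraries, against 78.8 (lowest), 97.7 (median) and 120.2 CPM (highest) in control plain libraries. The groups overlapped through control 5 and control 8, the change was small (log2 fold change 0.28, SE 0.10, edgeR adjusted p = 0.0363) and the call was lost in 8 of the 12 fits that leave out 1 library, all but those without gluten-free 9, control 1, control 5 or control 8. Il17ra had 90.2, 102, 97.3, 124 and 72.7 CPM in gluten-free S and 85.4, 76.2 and 132 CPM in control S libraries. Each diet spanned a wide range, and the ranges overlapped (log2 fold change -0.01, SE 0.21, edgeR adjusted p = 0.999). Il17rc, which pairs with Il17ra, was not called (log2 fold change 0.44, SE 0.18, edgeR adjusted p = 0.0582).

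The class II receptors, those for interferons and interleukin 10, had a median log2 fold change of 0.20 within the plain IDs. Of the 6 genes 2 were called higher, both of them chains of the interferon gamma receptor, and 0 lower. Among all genes tested 17.5% were called higher and 22.1% lower. With library totals alone 5 of the 6 were called higher, with a median of 0.47. Ifngr2 had 63.2, 51.9, 50.2 and 56.1 CPM in gluten-free plain libraries, against 37.9 (lowest), 42.3 (median) and 54.5 CPM (highest) in control plain libraries. Control 8 lay among the gluten-free libraries and the other controls below them (log2 fold change 0.36, SE 0.10, edgeR adjusted p = 0.0064). Ifngr2 had 39.5, 38.0, 35.3, 51.9 and 34.0 CPM in gluten-free S and 35.1, 34.8 and 51.0 CPM in control S libraries. In both groups the S6 library was the highest (log2 fold change -0.02, SE 0.18, edgeR adjusted p = 0.994). Ifngr1 had 106, 109, 109 and 124 CPM in gluten-free plain libraries, against 86.6 (lowest), 91.0 (median) and 113 CPM (highest) in control plain libraries. It showed the same order, with control 8 inside the gluten-free range (log2 fold change 0.26, SE 0.08, edgeR adjusted p = 0.0229), and the call was lost without gluten-free 10. Ifngr1 stood at 98.2, 97.3, 87.5, 100.4 and 93.2 CPM in gluten-free S and 93.4, 97.8 and 106 CPM in control S libraries. The ranges overlapped (log2 fold change -0.05, SE 0.11, edgeR adjusted p = 0.978). Of the chains of the type I interferon receptor, Ifnar1 was slightly higher and Ifnar2 slightly lower in gluten-free plain libraries, and neither was called (log2 fold change 0.14, SE 0.09, edgeR adjusted p = 0.263; log2 fold change -0.18, SE 0.08, edgeR adjusted p = 0.0647). Il10ra, which binds interleukin 10, and Il10rb, its partner, were not called either (log2 fold change 0.30, SE 0.14, edgeR adjusted p = 0.0877; log2 fold change 0.09, SE 0.09, edgeR adjusted p = 0.429).

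The difference of the diet effect between the ID forms, tested as an interaction over the 20 libraries, was called for 8 of the 40 receptor genes. It is given as the log2 fold change in the S IDs minus that in the plain IDs. Of the 8, 2 were called higher (5% of those tested, where 15.4% of all genes were called higher) and 6 lower (15% of those tested, where 9.37% of all genes were called lower). The median over the receptor genes was -0.41 and over all genes -0.02; library totals alone moved the median of all genes to -0.30 and called 2 receptor genes higher and 10 lower. The 2 higher ones were Il1rl1 (log2 fold change 1.49, SE 0.29, edgeR adjusted p = 0.00234) and Epor (log2 fold change 1.34, SE 0.31, edgeR adjusted p = 0.00558). Both had been called lower in the plain IDs. In the S IDs their log2 fold changes were 0.02 and 0.09.

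Called lower in the interaction were Csf3r (log2 fold change -1.33, SE 0.41, edgeR adjusted p = 0.0235), Csf2ra (log2 fold change -0.86, SE 0.27, edgeR adjusted p = 0.0232), Il6st (log2 fold change -0.67, SE 0.17, edgeR adjusted p = 0.00761), Il6ra (log2 fold change -0.62, SE 0.21, edgeR adjusted p = 0.0347), Csf1r (log2 fold change -0.61, SE 0.21, edgeR adjusted p = 0.0368) and Lifr (log2 fold change -0.43, SE 0.15, edgeR adjusted p = 0.0414). These were genes whose gluten-free over control difference was positive in the plain IDs and at or below 0 in the S IDs, as with Csf1r at 0.29 in the plain and -0.32 in the S IDs. Epor, Il1rl1 and Il6st kept the call in all 20 fits that leave out 1 library. The call of Csf3r was lost without gluten-free 10 or control S2, and that of Csf2ra without gluten-free 10, control S1 or control S6. The call of Il6ra was lost without gluten-free 7, gluten-free 10, gluten-free S5, gluten-free S8 or control S6, its value being -0.39 without control S6. The call of Csf1r was lost in 8 of the 20 fits, those without gluten-free 8, 9, 10, S5, S6 or S8 or without control S1 or S2. The call of Lifr was lost in 12 of the 20, and stood without gluten-free 10, S1, S3 or S6 or without control 1, 2, 5 or 8. The count of calls was 4 without gluten-free 10 and 5 without gluten-free S5, gluten-free S8 or control S1. In these fits 3875, 3694, 3586 and 3213 of all genes were called, against 4545 with all libraries. With the red cell precursor covariate none of the 8 calls was kept and 7 other receptor genes were called higher, Il10ra, Il4ra, Il2rg, Il21r, Il27ra, Il2rb and Il9r. Among the markers 9 of 10 red cell precursor genes were called higher and 9 of 9 neutrophil genes lower in the same interaction.

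**Figure D3:**
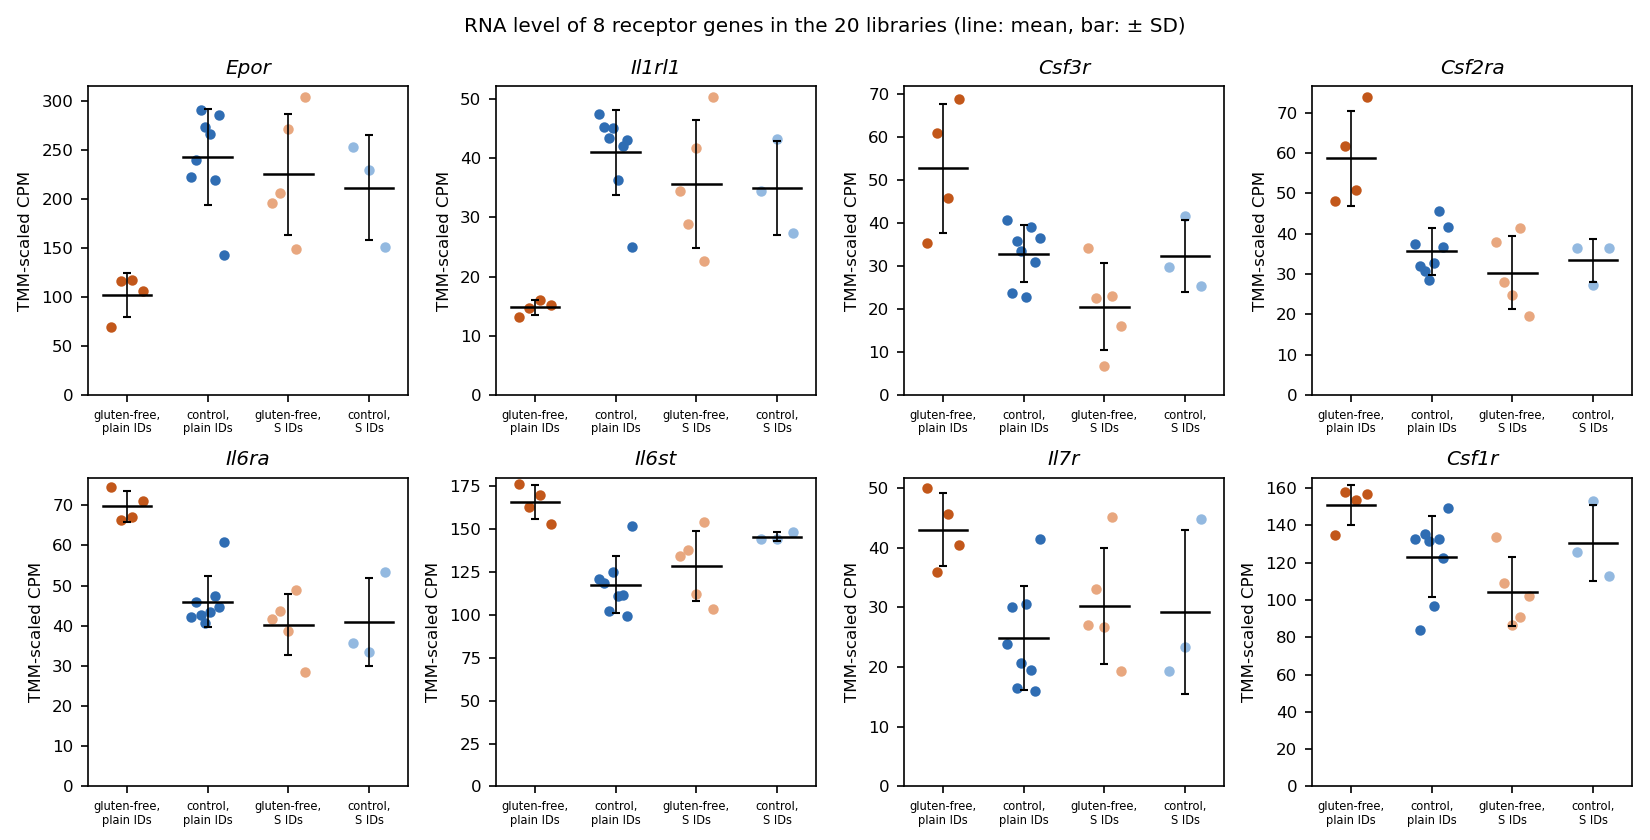
RNA level in TMM-scaled CPM of 8 receptor genes in each of the 20 libraries, by diet and ID form; each point is a library, the line is the group mean and the bar ± SD. Epor and Il1rl1 are lowest in the 4 gluten-free plain libraries (69.5 to 118 CPM for Epor and 13.2 to 16.1 CPM for Il1rl1), and the other 6 genes have their highest group mean there.

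Set against each other within the gluten-free diet, S and plain libraries gave 17 calls among the 40 receptor genes, 3 higher and 14 lower in S. Those shares of 7.5% and 35% stand beside 19.4% of all genes called higher and 12.1% called lower. Higher in gluten-free S than in gluten-free plain libraries were Il1rl1 (log2 fold change 1.27, SE 0.20, edgeR adjusted p = 0.002), Epor (log2 fold change 1.14, SE 0.22, edgeR adjusted p = 0.00318) and Il1r1 (log2 fold change 0.30, SE 0.08, edgeR adjusted p = 0.0144). The direction of Il1r1 turned when library totals alone were used, a scaling that moved the median of all genes from -0.06 to -0.37. Of the genes called lower, the largest falls were those of Csf3r (log2 fold change -1.36, SE 0.35, edgeR adjusted p = 0.0125), Csf2ra (log2 fold change -0.95, SE 0.21, edgeR adjusted p = 0.00591) and Il6ra (log2 fold change -0.79, SE 0.13, edgeR adjusted p = 0.00225). The other 11 genes called lower were Il17rc, Crlf2, Flt3, Csf1r, Il13ra1, Csf2rb, Csf2rb2, Ifngr2, Il10ra, Il6st and Il10rb, from -0.74 for Il17rc to -0.30 for Il10rb. Each of 8 calls was lost on leaving out at least 1 gluten-free library: Il1r1 without gluten-free 9, Csf2rb without gluten-free 10, Il17rc without gluten-free 8, 9, 10 or S8, and Il6st, Il10ra, Il10rb, Csf2rb2 and Il13ra1 in 6 or 7 such fits each. The count was 10 without gluten-free 9 or gluten-free 10, 11 without gluten-free 8 and 26 without gluten-free S6, and with the red cell precursor covariate it was 0. Calls among all genes moved too. They were 4134, 4182, 4208 and 7476 without gluten-free 9, 10, 8 and S6, against 5788 with all libraries.

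Within the control diet S and plain libraries gave 0 calls among the receptor genes, where 1.45% of all genes were called higher and 0.49% lower. The unadjusted edgeR p was under 0.05 for 2931 of all 18362 genes. Among the 40 receptor genes it was under 0.05 for 4, Osmr, Lifr, Il6st and Ghr, a smaller share. Each was higher in control S than in control plain libraries, with log2 fold changes from 0.31 to 0.52. DESeq2 called 1 of them, Osmr, at 0.46 (DESeq2 adjusted p = 0.0428). The control and gluten-free comparisons of the ID forms use different libraries, while each shares libraries with the diet comparisons.

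Libraries of the same group also differed in these genes. In 3 of the groups a single library held the highest value of many of the 41 genes: control 8 for 27 among the 8 control plain, gluten-free S6 for 29 among the 5 gluten-free S and control S6 for 27 among the 3 control S libraries. Among the 4 gluten-free plain libraries gluten-free 7 held the highest value of 18 genes, but also the lowest value of 14. These 4 libraries had the lowest summed red cell precursor level and the highest summed B cell level of their groups. The red cell precursor sums were 3794, 8700, 8368 and 9071 CPM and the B cell sums 2729, 2569, 2713 and 2434 CPM in gluten-free 7, control 8, gluten-free S6 and control S6. At the other end, gluten-free S8 held the lowest value of 24 of the 41 genes in its group, had the highest red cell precursor sum of all libraries at 21521 CPM, and had 303 CPM of Epor, the highest of the 20.

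Genes that act with these receptors gave the following counts within the plain IDs, where 17.5% of all genes were called higher and 22.1% lower. Of the 34 ligand genes listed 20 passed the filter, and 7 of the 20 were called higher and 0 lower, or 14 higher and 0 lower with library totals alone. The 3 with the smallest p were Ebi3, a subunit of interleukins 27 and 35, at 8.11 ± 0.594 CPM in gluten-free plain libraries (SD, n = 4) and 4.98 ± 0.936 CPM in control plain libraries (SD, n = 8) (log2 fold change 0.70, SE 0.16, edgeR adjusted p = 0.00236), Il12a, a subunit of interleukin 12 (log2 fold change 0.77, SE 0.19, edgeR adjusted p = 0.00378), and Il33, the ligand of the Il1rl1 product (log2 fold change 0.88, SE 0.22, edgeR adjusted p = 0.00425). Il33 was called higher in the comparison in which its receptor gene was called lower. In the S IDs Il33 averaged 17.7 ± 4.83 CPM in gluten-free (SD, n = 5) and 9.92 ± 2.01 CPM in control libraries (SD, n = 3). It was not called there, and the log2 fold change of Il1rl1 in the S IDs was 0.02. The ligand genes that did not pass the filter were Il2, Il3, Il5, Il6, Il9, Il12b, Il13, Il17a, Il17f, Il23a, Csf2, Csf3, Epo and Ifnb1.

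Among 11 JAK and STAT genes, the kinases and transcription factors behind class I and II receptors, 7 were called higher and 0 lower within the plain IDs. Those named by the smallest p were Stat4, used by interleukin 12 (log2 fold change 0.63, SE 0.12, edgeR adjusted p = 0.000789), Stat3, used by interleukin 6 relatives (log2 fold change 0.47, SE 0.10, edgeR adjusted p = 0.00126), and Jak3, the kinase bound to the common gamma chain (log2 fold change 0.63, SE 0.14, edgeR adjusted p = 0.00172). Of 9 interleukin 1 signalling genes 2 were called higher and 2 lower, near the shares of all genes (17.5% higher, 22.1% lower), and with library totals alone 5 were called higher and 0 lower. With TMM scaling Tab2 (log2 fold change -0.36, SE 0.08, edgeR adjusted p = 0.00207) and Tab1 (log2 fold change -0.49, SE 0.12, edgeR adjusted p = 0.00364), partners of the kinase TAK1, fell, and Irak4, a kinase at the receptor (log2 fold change 0.39, SE 0.11, edgeR adjusted p = 0.0115), rose. Of 15 negative regulators 8 were called higher and 2 lower, or 12 higher and 1 lower with library totals alone, with Socs1 (log2 fold change 0.89, SE 0.15, edgeR adjusted p = 0.000285) and the interleukin 1 receptor antagonist Il1rn (log2 fold change 0.86, SE 0.18, edgeR adjusted p = 0.00138) higher and Socs4 (log2 fold change -0.60, SE 0.11, edgeR adjusted p = 0.000545) lower. Of 16 receptor genes outside the 41, 9 were called higher and 0 lower, among them Il11ra1, the chain that binds interleukin 11 (log2 fold change 0.48, SE 0.10, edgeR adjusted p = 0.00152), and Ifnlr1, a chain of the interferon lambda receptor (log2 fold change 0.87, SE 0.20, edgeR adjusted p = 0.00258). Within the S IDs the median log2 fold changes of the 5 lists ran from -0.22 for the ligands to 0.09 for the negative regulators. In the interaction 6 of the 16 receptor genes outside the 41 were called lower, Il11ra1 (-0.56) among them, as were the ligand genes Il12a (-1.03) and Ebi3 (-1.06).

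**Figure D4:**
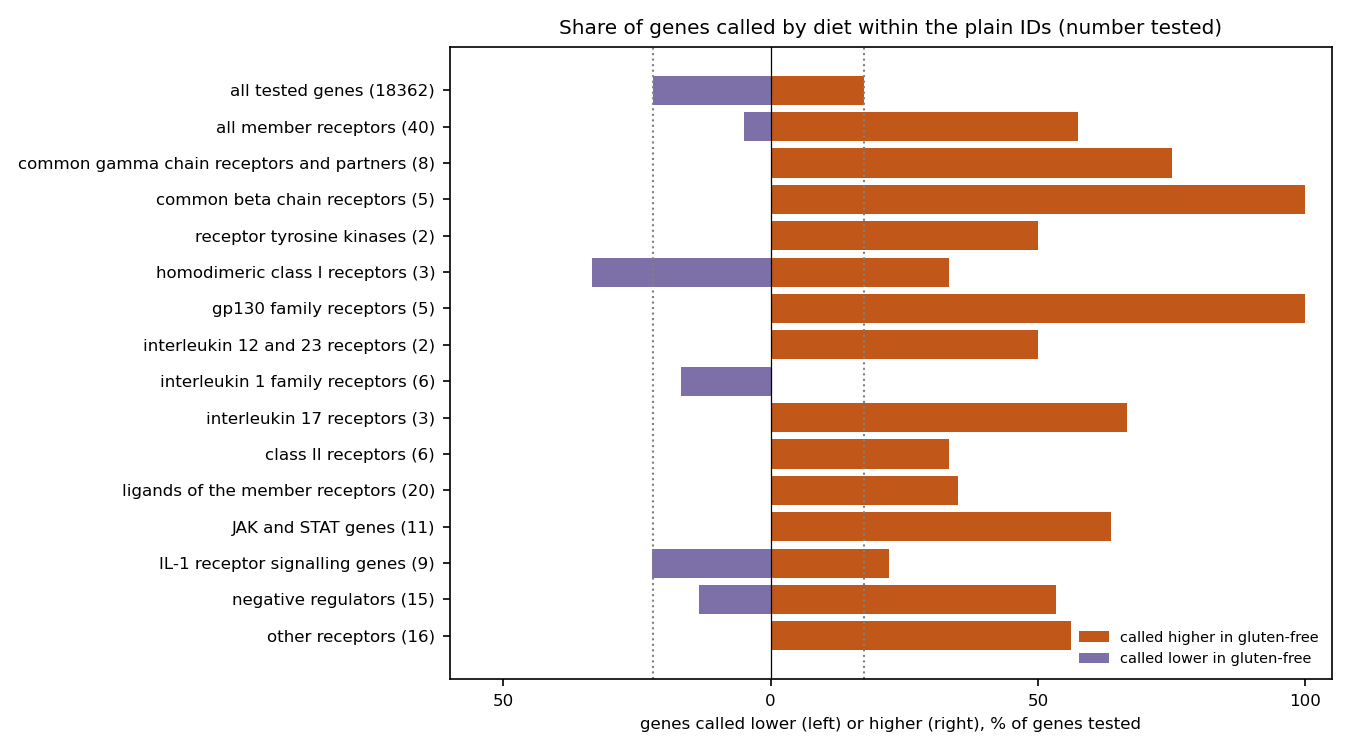
Share of genes called within the plain IDs at an edgeR adjusted p under 0.05, higher in gluten-free to the right and lower to the left of 0, as a percentage of the genes tested in each list (number in brackets); dotted lines mark the shares of all 18362 genes, 17.5% higher and 22.1% lower. All 40 tested receptor genes together stand at 57.5% higher and 5% lower, and the bars of lists of 2 to 6 genes rest on few genes.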

How the data were processed

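RNA was measured in 20 whole spleen libraries. The authors deposited 1 count for each gene and library, as whole numbers that were not normalized, together with a gene length that served for CPM per kilobase. Per the submitters' processing notes the tools were CASAVA, HISAT2 2.0.5 and featureCounts 1.5.0, with GRCm38 (mm10). The annotation release, the strand setting and the handling of multi-matching reads are not given in the sources used here, so overlapping and near-identical genes are less certain. Shared 50-base words and exon overlaps were computed on the GRCm38 annotation, where 39 of the 41 genes had the deposited start and end.

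Groups were compared in R 4.3.3 by the quasi-likelihood test of edgeR 4.0.16 (two-sided, TMM scaling, the default expression filter, trended dispersion). It ran over all 18362 genes that passed, with Benjamini-Hochberg adjustment and a threshold of 0.05. A prior count of 2 was used for log2 CPM levels, and the test kept edgeR's default. The diet was fitted over all libraries with a term for the ID form, within the plain IDs, within the S IDs and as an interaction, and the ID form within each diet. Log2 fold changes carry their standard error (SE). Exact permutation tests were two-sided. The fits were tested on simulated data.

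All 41 genes are named. Values of each library (for the 8 control plain libraries the lowest, median and highest) are given for up to 2 genes of each receptor family with the largest absolute log2 fold change among those called within the plain IDs at a mean of at least 1 CPM, and for each gene called in another diet fit. Of each list of companion genes up to 3 with the smallest p are named, except 1 gene that is not reported here. The receptor genes and all lists were chosen with earlier results of these data known. Alternatives were other scalings and filters, DESeq2 1.42.0, limma-voom (limma 3.58.1), 1 fit of the 4 groups, a replicate block, a red cell precursor covariate and leaving out libraries. Counting noise was small: the lowest chi-square per degree of freedom was 6.1 and the highest 106 among 47 pairs of libraries of the same group, and no pair agreed within counting noise.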

Additional observations from a re-analysis of the deposited data

Results flagged for a closer look

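In 13 of 123 sets of 1 receptor gene in 1 group, a single library stood apart from the rest by Dixon's criterion. Chance meets that criterion in about 1 in 20 groups. The control S group, with 3 libraries, was not looked at. Genes of a group are read in the same libraries, so the 13 sets are not independent of each other. Control 8 stood apart in 6 of them, as the highest of the 8 control plain libraries: Il5ra had 12.7 CPM there and 6.93 CPM in the next library, Il6ra 61.0 and 47.5, Il12rb1 5.03 and 2.93, Il17rb 4.24 and 2.29, Ifngr1 113 and 98.6, and Ifngr2 54.5 and 43.0 CPM. Gluten-free 7 stood apart in 3, with 108 CPM of Il2rg and 87.5 CPM in the next gluten-free plain library, 119 and 89.9 CPM of Il21r, and 0.928 and 0.172 CPM of Il23r. Gluten-free 8 was the highest for Il1r2, at 2.23 CPM against 1.33 in the next library, and the lowest for Il17rb, at 3.04 CPM against 4.26. Gluten-free S6 was the highest gluten-free S library for Il17rb, at 5.57 CPM against 2.82 in the next, and for Ifnar1, at 86.3 CPM against 71.4. Control 8, gluten-free 7 and gluten-free S6 also had the lowest summed red cell precursor markers of their groups, and the part of this in the values was not tested.

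The diet effect differed between the ID forms for 8 receptor genes by the interaction test. In the S IDs it exceeded that in the plain IDs by 1.49 on the log2 scale for Il1rl1 and by 1.34 for Epor. It was lower in the S IDs for Csf3r (-1.33), Csf2ra (-0.86), Il6st (-0.67), Il6ra (-0.62), Csf1r (-0.61) and Lifr (-0.43).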

How the results depend on the processing

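The count of receptor genes called within the plain IDs was 25, lay between 19 and 34 under other scalings, filters and tools and 1 fit of the 4 groups, and between 19 (without gluten-free 10) and 31 (without control 8) when 1 library was left out. With the red cell precursor covariate it was 4. Deviations of same-numbered libraries of the 2 diets correlated at 0.378 for S6, but at 0.0944 for S1, -0.172 for 7 and -0.197 for 8. The numbers were therefore not taken to pair the libraries. A replicate block over the shared numbers gave 0 calls within the plain IDs. That block kept only the plain libraries numbered 7 and 8, too few for its 0 calls to be read against the other fits. Over all libraries the count was 0 in edgeR, 5 in DESeq2 and 0 to 19 with 1 library left out. The fit that gave 19, without control S6, called 3695 of all genes. The interaction count was 8 and ran from 4 to 12 with 1 library left out. For the ID form within gluten-free the count was 17, with 28 under library totals alone, 0 with the covariate and 10 to 26 with 1 library left out. Among all genes 4134 were called there without gluten-free 9 and 7476 without gluten-free S6, against 5788 with all libraries. For the ID form within control it was 0, with 1 in DESeq2, 1 with the covariate and 0 to 1 with 1 library left out. Within the S IDs the count was 0 under each of these alternatives.

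The covariate turned the sign of 13 of the plain ID values of the genes given by library: Epor became 0.32, Lifr -0.11, Il6st -0.11, Il6ra -0.07, Ifngr1 -0.09, Il17ra -0.25, Ifngr2 -0.36, Il12rb1 -0.37, Il17rb -0.59, Il21r -0.65, Il7r -0.77, Il27ra -1.09 and Il5ra -1.25, and the interaction of Il6ra became 0.16. The cause was not tested. No sign turned under the other alternatives for these genes. Depth limits the low genes most: Il23r, with 68 counts in all, and 14 of the 34 ligand genes could not be tested, and intervals cover the spread between libraries whose source animals are not stated.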
